A study of Mus musculus with 23 samples.

Results

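The alpha and mu classes of cytosolic glutathione transferases were examined in TM4, an immortalized line derived from the Sertoli cells of mouse testis. The members were the 10 genes Gsta1, Gsta2, Gsta3, Gsta4, Gstm1, Gstm2, Gstm4, Gstm5, Gstm6 and Gstm7, chosen because the RefSeq transcript named for an array probe belonged to 1 of them. They held 18 of the 55681 non-control probes and were 10 of the 20145 genes that could be named. Cells were treated for 48 hr with 100 μM of a plasticizer or plasticizer metabolite dissolved in DMSO (1% in the medium), or with 1% DMSO alone. The compounds were mono(2-ethylhexyl) phthalate (MEHP), the cyclohexane dicarboxylate ester DINCH, dioctyl maleate (DOM), butanediol dibenzoate (BDB) and dioctyl succinate (DOS). RNA of each culture was hybridized to its own 1-colour Agilent array, with 4 arrays for each group and 3 for DOS, where the authors left out 1 array for high background. A single cell line, dose and time were measured.

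Glutathione transferases join the tripeptide glutathione to electrophilic compounds, which makes them more soluble and easier to export from the cell. Alpha enzymes are best known in liver and steroid-producing tissue, where they also reduce lipid hydroperoxides, while mu enzymes act on epoxides and other electrophiles and are abundant in testis and liver. Many of these genes are known to be transcribed through the antioxidant response element, which is bound by the transcription factor NRF2. In the RefSeq annotation the mu genes lie side by side on chromosome 3 in the order Gstm5, Gstm7, Gstm6, Gstm3, Gstm2, Gstm1 and Gstm4, with pseudogenes between some of them. Gsta4, Gsta1 and Gsta2 lie on chromosome 9 and Gsta3 on chromosome 1.

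Because the detected mu genes lie in 1 cluster and all rose after DOM treatment, the 150 bases before the start of Gstm1, Gstm2 and Gstm5 are shown, from the RefSeq promoter windows of build GRCm38.p6. Gstm1 has more than 1 such window, and only that of the outer start is shown. The core of the antioxidant response element, TGACNNNGC, was searched on both strands from 250 bases before to 50 bases after each start. Capitals mark a match.
Gstm1 (chr3:108017974-108018123, minus strand): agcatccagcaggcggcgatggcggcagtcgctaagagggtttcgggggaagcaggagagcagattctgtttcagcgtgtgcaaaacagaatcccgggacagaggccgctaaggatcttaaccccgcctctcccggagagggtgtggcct
Gstm2 (chr3:107986421-107986570, minus strand): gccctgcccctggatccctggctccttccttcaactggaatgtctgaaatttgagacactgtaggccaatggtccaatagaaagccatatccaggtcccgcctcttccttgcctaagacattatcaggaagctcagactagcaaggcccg
Gstm5 (chr3:107895704-107895853, plus strand): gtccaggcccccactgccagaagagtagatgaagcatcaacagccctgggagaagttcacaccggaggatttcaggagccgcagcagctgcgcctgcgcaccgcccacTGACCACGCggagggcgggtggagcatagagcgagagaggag
The core was found in 3 of the 14 windows of the 9 members that had one, while 12.4% of all 32851 windows of this length held it. In Gstm5 it began at position -42 from the start and read TGACCACGC. The other matches were TGACATTGC at position -121 of Gsta3 and TGACAAAGC at position -129 of the inner of 2 Gstm7 windows. The windows of Gsta1, Gsta2, Gstm1, Gstm2, Gstm4 and Gstm6 held no match to these letters. With the outermost window of each gene, the Gsta1 and Gsta2 sequences were 80.4% identical over the 150 bases. Every other pair of the members that had a window was 44.3% to 57.1% identical. Of the detected mu members only Gstm5 thus held a match within these windows. The windows of Gstm3, a mu gene of the same cluster that is not a member, were not examined.

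Levels are given as log2 of the background-subtracted signal relative to the 75th percentile of the array, so that 0 is the brightness below which 75% of the spots lay. An array has no read depth, and the number of arrays limits the precision. Per array, 43.4% to 52.2% of spots were well above background and none was saturated. Of the Sertoli cell markers, Gata4, Inhbb, Inha, Dhh, Kitl and Dmrt1 were well above background on all 23 arrays. Rhox5, Sox9 and Clu were on 21, 20 and 12, Gdnf, Amh and Trf were on 3, 1 and 1, and Wt1, Fshr and Cldn11 were on none. Of the markers of other testis cells, those on all arrays were 1 of 5 Leydig cell genes (Cyp17a1), 2 of 4 peritubular myoid genes (Acta2 and Cnn1), 1 of 3 macrophage genes (Csf1r), 1 of 3 endothelial genes (Pecam1) and 0 of 4 germ cell genes. Cyp11a1, Hsd3b1, Lhcgr, Myh11, Adgre1, Ptprc, Cdh5, Tek, Ddx4, Dazl and Kit were on none. In bulk RNA, fewer cells of a type and less RNA per cell cannot be told apart. The 23 arrays lay on 3 slides, where those of DMSO, DOM and DOS were in rows 2 and 4 and those of MEHP, DINCH and BDB in rows 1 and 3. For the last 3 compounds the row and the difference from DMSO cannot be told apart.

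Of the 10 genes, 5 were expressed at a level well above background on all 23 arrays: Gsta4 of the alpha class and Gstm1, Gstm2, Gstm4 and Gstm5 of the mu class. These were the members that passed the filter for testing. For each of the 5, every DOM array lay above every one of the 19 other arrays. Of all genes tested for DOM, 8.2% had that pattern. The other 5 members were at or near background and are described separately.

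**Figure D1:**
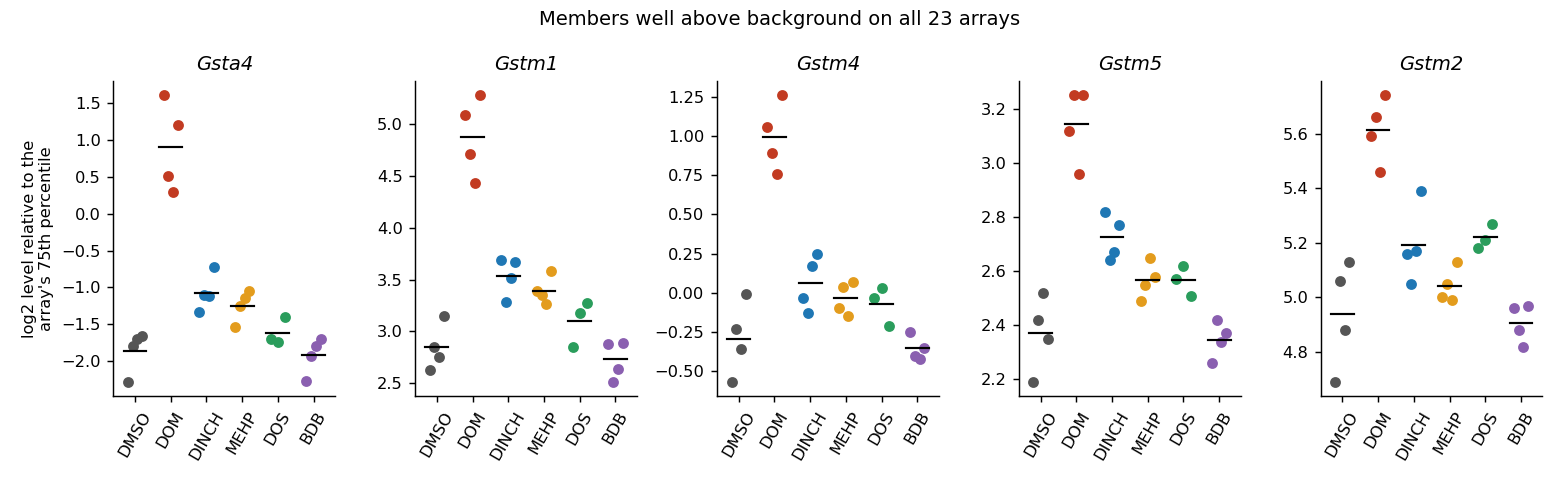
Log2 level relative to the 75th percentile of the array (vertical axis, with a separate scale for each gene) of the 5 members well above background on all 23 arrays, by treatment group (horizontal axis). Each point is the brightest probe of the gene on 1 array and the line is the group mean. In each panel the 4 DOM arrays sit above all 19 other arrays.

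Gsta4 encodes the alpha enzyme that conjugates 4-hydroxynonenal, an aldehyde formed when membrane lipids are oxidized. Its probe is spotted 10 times on each array. On the 4 DMSO arrays its level was -2.29, -1.80, -1.71 and -1.66, and on the 4 DOM arrays it was 1.61, 0.52, 0.29 and 1.21. The groups were far apart, although the DOM arrays were more widely spread than those of any other group. The mean rose from -1.86 ± 0.29 (SD, n = 4) to 0.91 ± 0.61 (SD, n = 4), a 6.82-fold difference with a 95% interval of 4.38 to 10.6 (log2 difference 2.77, SE 0.28, limma adjusted p = 0.000361). With DINCH the 4 arrays read -1.34, -1.10, -1.12 and -0.73, and with MEHP -1.54, -1.26, -1.15 and -1.05. All 8 of these arrays lay above the DMSO arrays and below the DOM arrays. The 3 DOS arrays, at -1.71, -1.75 and -1.40, and the 4 BDB arrays, at -2.27, -1.93, -1.80 and -1.71, overlapped the DMSO arrays.

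Gstm1, a broadly acting and abundant mu enzyme, had the same order of groups. Its level was 2.63, 2.85, 2.75 and 3.15 on the DMSO arrays and 5.09, 4.71, 4.43 and 5.28 on the DOM arrays. This was a rise of 4.09-fold with a 95% interval of 3.02 to 5.55 (log2 difference 2.03, SE 0.19, limma adjusted p = 0.00029). The DINCH arrays read 3.69, 3.28, 3.52 and 3.67 and the MEHP arrays 3.39, 3.35, 3.26 and 3.58. Each of these was above the highest DMSO array. The DOS arrays (2.85, 3.18 and 3.27) and the BDB arrays (2.88, 2.51, 2.64 and 2.89) overlapped the DMSO arrays. A dimmer probe of Gstm1 gave a log2 difference of 2.01 for DOM, and its level correlated with that of the brighter probe at r = 0.99 over the 23 arrays, which share their scaling.

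Gstm4, another mu enzyme, read -0.57, -0.23, -0.36 and -0.01 with DMSO and 1.06, 0.89, 0.76 and 1.26 with DOM. It rose 2.44-fold (95% interval 1.92 to 3.09, log2 difference 1.29, SE 0.15, limma adjusted p = 0.000579). The probes of this gene did not give the same picture, because the second stayed at background on all arrays and lay at -6.06 ± 0.44 (SD, n = 4) with DOM and -5.78 ± 0.69 (SD, n = 4) with DMSO. Gstm5, the mouse counterpart of the mu enzyme most typical of human testis and brain, read 2.19, 2.42, 2.52 and 2.35 with DMSO and 3.12, 3.25, 2.96 and 3.25 with DOM. The rise was 1.71-fold (95% interval 1.44 to 2.03, log2 difference 0.77, SE 0.11, limma adjusted p = 0.00127). Gstm2, a mu enzyme known for conjugating the dopamine product aminochrome, read 4.69, 5.06, 4.88 and 5.13 with DMSO and 5.59, 5.66, 5.46 and 5.74 with DOM. Its rise was the smallest of the 5 members at 1.60-fold (95% interval 1.32 to 1.93, log2 difference 0.68, SE 0.12, limma adjusted p = 0.00355), and its other 2 probes gave 0.68 and 0.70. All DOM arrays were above all DMSO arrays for these 3 genes, as for 19% of the genes tested.

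In the comparison of DOM with DMSO, all 5 tested members were called higher, which required an adjusted p below 0.05 together with more than 1.5-fold, where 9.89% of the 12004 genes tested were called higher. The median log2 difference of the 5 was 1.29, against -0.03 over all genes tested. Within each of the 3 slides all 5 differences were above 0, with ranges of 2.04 to 3.36 for Gsta4, 1.63 to 2.27 for Gstm1, 1.05 to 1.55 for Gstm4, 0.49 to 0.99 for Gstm5 and 0.50 to 0.94 for Gstm2. Slides 1 and 3 held 1 DMSO array each. The upper end of every range came from slide 1, whose DMSO array was replicate 1. DMSO replicate 1 was the lowest DMSO array for each of the 5 genes. Without it the log2 differences were 2.63, 1.96, 1.19, 0.71 and 0.59 in the same order, and all were still called. On the log2 scale the difference of Gsta4 exceeded that of Gstm1 by 0.74 and that of Gstm2 by 2.09 within the same arrays. The p of an exact two-sided permutation test over the arrays was 0.0286 for 8 of the 10 pairs of members, the smallest that 4 against 4 arrays allow. After adjustment over the 50 tests of this kind it was 0.0894. With that lower limit on p, an adjusted p below 0.05 was hardly within reach. These tests therefore cannot decide whether the members rose unequally.

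**Figure D2:**
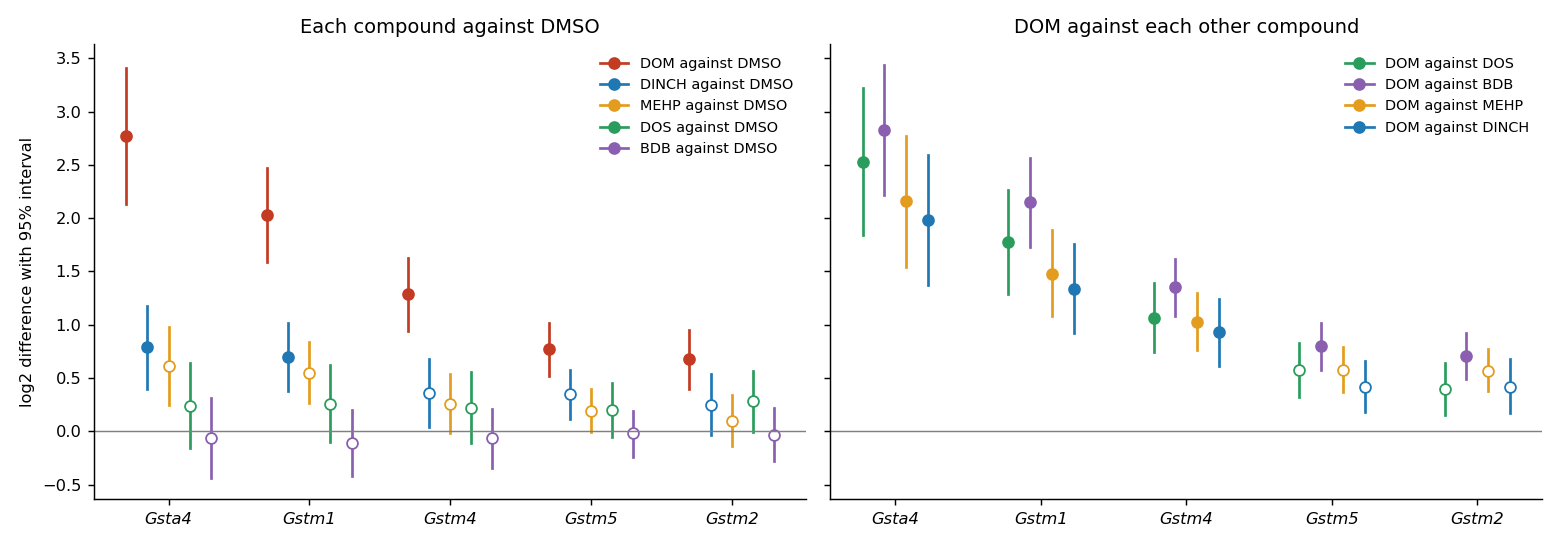
Log2 difference with its 95% confidence interval (vertical axis) for the brightest probe of each of the 5 tested members (horizontal axis), for each compound against DMSO (left) and for DOM against each other compound (right). Filled points were called at an adjusted p below 0.05 and more than 1.5-fold. In the left panel the DOM values run from 0.68 to 2.77 and those of BDB from -0.11 to -0.02, and in the right panel all intervals lie above 0.

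After DINCH treatment 2 of the 5 tested members were called higher, against 4.25% of the genes tested. Gsta4 rose 1.73-fold (95% interval 1.32 to 2.27, log2 difference 0.79, SE 0.17, limma adjusted p = 0.0236) and Gstm1 rose 1.62-fold (95% interval 1.30 to 2.02, log2 difference 0.70, SE 0.14, limma adjusted p = 0.0181). Gstm5 had all 4 DINCH arrays above the DMSO arrays, at 2.82, 2.64, 2.67 and 2.77 (as 11.6% of genes did), but it did not pass (log2 difference 0.35, SE 0.10, limma adjusted p = 0.0574). Gstm4 (0.36, limma adjusted p = 0.147) and Gstm2 (0.25, limma adjusted p = 0.244) did not pass. The differences within slides were 0.65 to 0.94 for Gsta4 and 0.45 to 1.07 for Gstm1. Both upper ends came from slide 1, which held 1 array of each of these groups. Both calls were lost when single arrays were left out. Without DMSO replicate 3 the log2 differences were 0.84 for Gsta4 (limma adjusted p = 0.0542) and 0.67 for Gstm1 (0.0614), without DINCH replicate 4 they were 0.67 (0.0557) and 0.66 (0.051), and without DMSO replicate 2 Gsta4 was 0.81 (0.0523).

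With MEHP no member was called, where 1.13% of the genes tested were called higher. All 4 MEHP arrays were above all DMSO arrays for Gsta4 and Gstm1, a pattern shown by 7.79% of genes. The log2 difference was 0.61 for Gsta4 (95% interval 0.25 to 0.98, limma adjusted p = 0.0972) and 0.55 for Gstm1 (0.27 to 0.84, limma adjusted p = 0.0628). With the slide as a block Gsta4 passed (0.71, limma adjusted p = 0.0263), and without DMSO replicate 4 Gstm1 passed (0.65, limma adjusted p = 0.041). Of 17 alternative settings, Gsta4 was called in 3 and Gstm1 in 1. With normexp background correction Gsta4 was at 0.33 (limma adjusted p = 0.223), and without DMSO replicate 1 it was at 0.47 (limma adjusted p = 0.0988). For Gstm4, Gstm5 and Gstm2 the differences were 0.26, 0.19 and 0.10, with adjusted p-values of 0.356, 0.329 and 0.697 in limma.

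With BDB the log2 differences of the 5 members were between -0.11 and -0.02. The 95% intervals ran from -0.44 to 0.31 for Gsta4 and from -0.42 to 0.20 for Gstm1, so differences within these limits remain possible. With DOS the differences were 0.20 to 0.28, all above 0, and the intervals of all 5 included 0 (-0.16 to 0.64 for Gsta4 and -0.01 to 0.57 for Gstm2). No member was called for either compound, and the percentage of all tested genes called was 0 for both. At an unadjusted limma p below 0.05 there were 3493 probes for BDB and 1721 for DOS, none of them a member's. The smallest adjusted p was 0.0695 for BDB and 0.341 for DOS. All comparisons above use the same 4 DMSO arrays.

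The compounds were also compared directly, at the same dose and time and without the DMSO arrays, in 10 pairs with p-values adjusted over the tests of all pairs. DOM and DOS are both dioctyl esters and differ in the acid, which has a carbon double bond in the maleate and none in the succinate. Gsta4 was 5.77-fold higher with DOM than with DOS (95% interval 3.58 to 9.29, limma adjusted p = 0.00131), Gstm1 3.43-fold (2.45 to 4.80, limma adjusted p = 0.00132) and Gstm4 2.09-fold (1.67 to 2.62, limma adjusted p = 0.00216). These 3 members were called, where 6.87% of genes were called higher. Gstm5 (1.49-fold, limma adjusted p = 0.0116) and Gstm2 (1.32-fold, limma adjusted p = 0.0418) passed the p threshold but not the 1.5-fold limit. With the slide as a block all 5 members were called.

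The other 3 compounds lay in other slide rows than DOM, so for them the row and the difference from DOM cannot be told apart. Against BDB all 5 members were called (14.1% of genes higher), with Gsta4 7.13-fold and Gstm2 1.63-fold higher. Against MEHP 4 were called (9.05% of genes), the fourth being Gstm2, whose brightest probe was at 1.49-fold and whose other probes were at 1.52 and 1.53-fold. Against DINCH 3 were called (11.1% of genes), with Gsta4 3.95-fold, Gstm1 2.52-fold and Gstm4 1.90-fold higher with DOM.

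Below DOM the compounds were harder to tell apart. MEHP, DINCH and BDB lay in the same slide rows, so their comparisons are free of the row difference noted above. Gsta4 and Gstm1 were higher with DINCH than with BDB (log2 differences 0.85 and 0.81, limma adjusted p = 0.00688 and 0.00339), which makes 2 members called against 5.43% of genes. They were also higher with MEHP than with BDB (0.68 and 0.66, limma adjusted p = 0.0139 and 0.00491), again 2 members, against 1.67% of genes. Without BDB replicate 1 this count was 1. Between MEHP and DINCH no member was called (3.47% of genes in either direction), and the log2 difference of MEHP minus DINCH was -0.18 for Gsta4 (95% interval -0.52 to 0.16) and -0.15 for Gstm1 (-0.41 to 0.12). Between DOS and MEHP, DINCH or BDB, which lay in other rows, no member was called (1.44%, 5.9% and 2.25% of genes in either direction). Several of the intervals, which are not adjusted for the number of tests, nevertheless excluded 0. DOS was lower than DINCH by such an interval for Gsta4 (-0.92 to -0.17, limma adjusted p = 0.0565) and Gstm1 (-0.78 to -0.10, limma adjusted p = 0.0851), whose dimmer probe passed the p threshold but not the 1.5-fold limit (log2 difference -0.53, limma adjusted p = 0.0173). Against MEHP the interval was -0.70 to -0.04 for Gsta4 (limma adjusted p = 0.125), and the brighter Gstm1 probe was at -0.30 (limma adjusted p = 0.167). Against BDB the intervals lay above 0 for Gstm1, Gstm2, Gstm4 and Gstm5, from 0.10 to 0.52 for Gstm2 (limma adjusted p = 0.0526). Without DINCH replicate 1 the count of members called between DOS and DINCH was 1. For Gsta4 the order of the group means was thus DOM, DINCH, MEHP, DOS, DMSO and BDB, and of the neighbours in it only DOM and DINCH passed the adjusted threshold.

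The other 5 members were not tested in the main setting, because none was well above background on every array of a group. Gsta1, an alpha enzyme known as inducible in liver, came closest. Its only probe was well above background on 2 arrays, DOM replicates 1 and 3. The DOM arrays read -2.76, -4.66, -4.18 and -4.98, and the DMSO arrays -6.10, -5.47, -6.07 and -6.12. No array of any other group reached the lowest DOM array. The DMSO values are all at background and 2 of the 4 DOM values were not well above it, so no fold change or test is given.

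**Figure D3:**
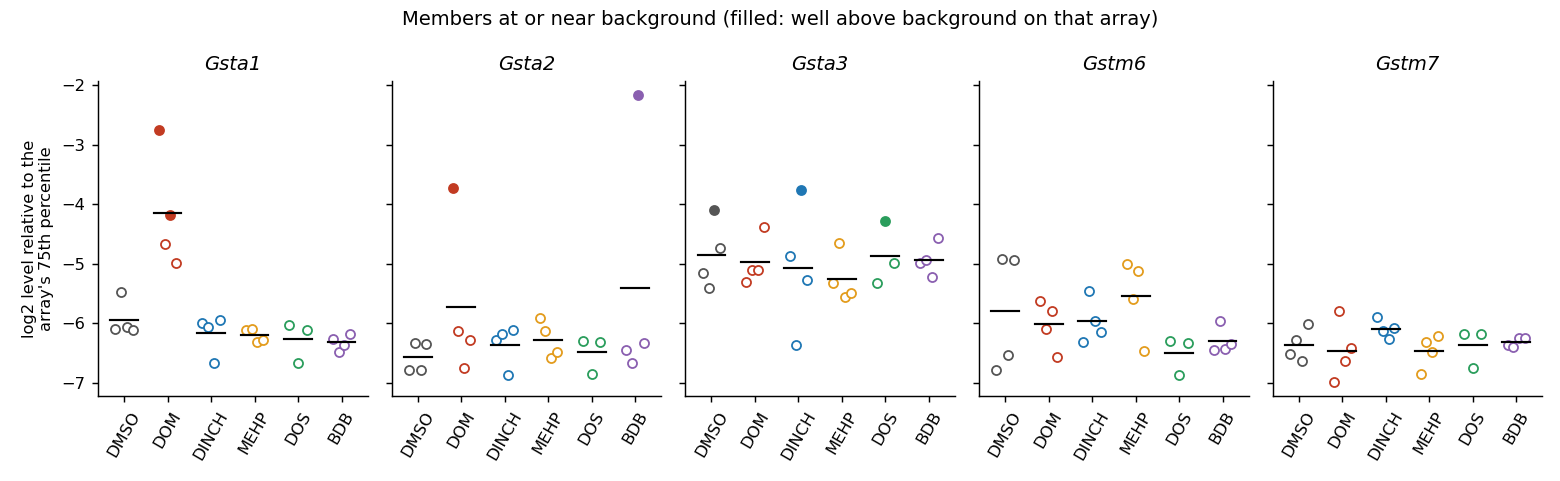
Log2 level relative to the 75th percentile of the array (vertical axis, shared) of the 5 members at or near background, by treatment group (horizontal axis). Each point is the brightest probe of the gene on 1 array, filled where it was well above background and open where it was not, and the line is the group mean. Gsta1 has 2 filled points, both with DOM, and Gstm6 and Gstm7 have none.

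Gsta2, the closest relative of Gsta1 among the members in its promoter window, was well above background on 2 arrays, DOM replicate 1 (-3.72) and BDB replicate 3 (-2.17), while the other arrays of these groups read between -6.75 and -6.13. Single arrays thus made up both group means. Gsta3, the alpha enzyme that in mouse inactivates the aflatoxin epoxide, has 2 probes. The brighter was well above background on 3 arrays, 1 each of DMSO (-4.09), DINCH (-3.76) and DOS (-4.28), and the other on 1 DOM array. The mean of the brighter probe was -4.85 ± 0.58 (SD, n = 4) with DMSO and -4.97 ± 0.41 (SD, n = 4) with DOM. For the mu genes Gstm6, with 3 probes, and Gstm7, with 2, no probe was well above background on any of the 23 arrays. Their transcripts were not detectable at this brightness in any group.

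The 5 detected members varied together. Across the 23 arrays the Pearson correlation between pairs of them was 0.89 to 0.97, and without the DOM arrays it was 0.67 to 0.86 over 19 arrays. Within the groups, as deviations from group means, it was 0.31 (Gstm1 and Gstm5) to 0.82 (Gstm2 and Gstm4). All members share the scaling of their array, and quantile normalization left the range at 0.91 to 0.98. Close relatives can also bind each other's probes. Probe sequences were not analysed here, and the part of such binding in the mu values was not tested.

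**Figure D4:**
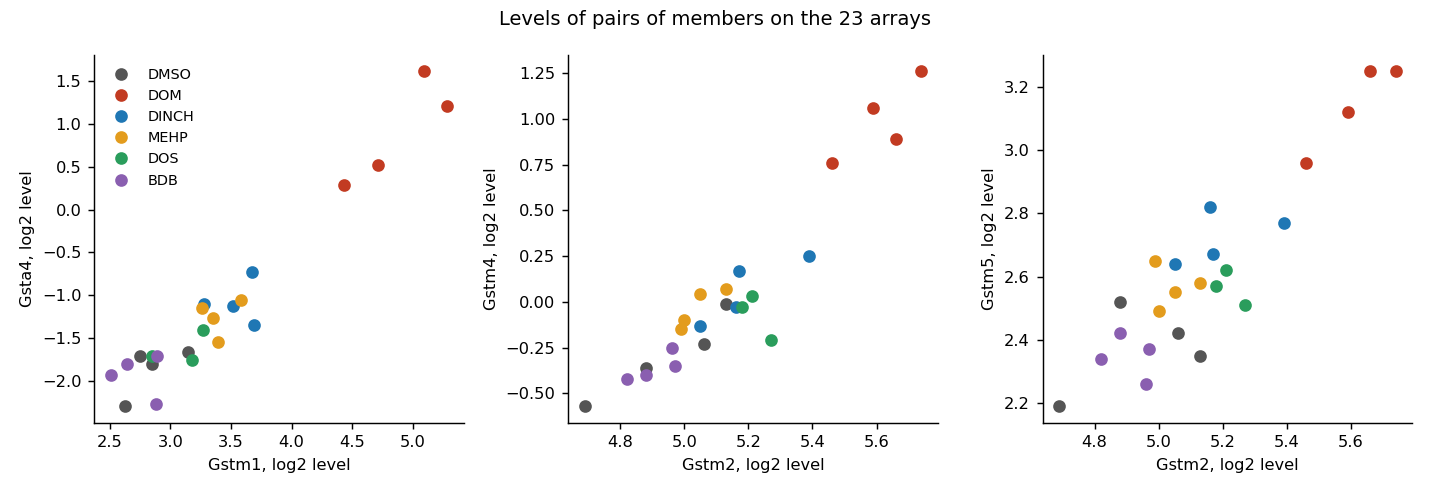
Log2 levels of pairs of members on the 23 arrays, with 1 point per array and 1 colour per treatment group. The axes are log2 levels relative to the 75th percentile of the array. The 4 DOM arrays lie at the upper right of each panel, and the other 19 arrays still run upwards together.

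Among 11139 genes outside the members and the pathway lists that were well above background on all 23 arrays, 5 followed the mean of the 5 members most closely. These were the amino acid transporter gene Slc43a2 (r = 0.979), the lysosomal protease gene Ctsa (0.968), the ubiquitin ligase gene Herc3 (0.965), the oxidative stress response gene Osgin1 (0.957) and Cmtm3 (0.956). With DOM their log2 levels exceeded DMSO by 2.73, 0.85, 2.22, 1.04 and 1.02. With BDB their differences were between -0.25 and 0.06. These correlations run over 23 arrays that share treatments and scaling.

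The rest of the glutathione pathway was described from gene lists chosen with earlier results of these data known, so their counts are a description only. Of 14 other glutathione transferases tested for DOM, 5 were called higher and 1 lower, with a median log2 difference of 0.50. The largest rises were those of the microsomal transferase Mgst1 (3.04-fold, limma adjusted p = 0.000421), of Gsto2, which reduces dehydroascorbate (2.00-fold, limma adjusted p = 0.00282), and of Gstm3, the mu gene between Gstm6 and Gstm2 (1.82-fold, limma adjusted p = 0.00164). Mgst3 and Gstk1 rose 1.73-fold and 1.61-fold, and Gstcd, whose DOM and DMSO arrays overlapped, fell by 0.81 on the log2 scale. Of 12 genes of glutathione synthesis and reduction, 2 were called higher and 2 lower. Pgd, which supplies NADPH, rose 2.62-fold and Gclm, the modifier subunit of the enzyme that limits glutathione synthesis, rose 1.93-fold, whereas Chac1, which degrades glutathione, and Slc3a2, the partner chain of the cystine transporter, fell by 0.67 and 0.65 on the log2 scale. None of 6 glutathione peroxidases was called, and their median was -0.23, with 2 differences above 0. Gpx4 and Gpx1 fell by 0.53 and 0.36 on the log2 scale (limma adjusted p = 0.00434 and 0.0177) but did not reach 1.5-fold. The background was 9.89% of genes called higher and 10.6% called lower.

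Downstream of conjugation, 1 of 9 genes of export and mercapturate formation was called with DOM, the conjugate exporter Abcc1, which rose 1.88-fold (limma adjusted p = 0.00192). That count is near the share over all genes tested, of which 9.89% were called higher. Of 12 regulators 2 were called higher, Bach1, a repressor at antioxidant response elements, at 1.66-fold (limma adjusted p = 0.013), and Arnt, the partner of the aryl hydrocarbon receptor, through a dimmer probe at 1.59-fold (limma adjusted p = 0.00235). Nfe2l2, which encodes NRF2, passed the p threshold but not the 1.5-fold limit (log2 difference -0.35, limma adjusted p = 0.0214). All its DOM arrays lay below all DMSO arrays. Of 13 NRF2 target genes outside conjugation 6 were called higher and none lower, with a median of 0.53. Hmox1, which degrades heme, rose 9.42-fold (limma adjusted p = 1.59e-05), the quinone reductase gene Nqo1 3.64-fold (0.000289) and the aldehyde oxidase gene Aox1 2.96-fold (0.000579).

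**Figure D5:**
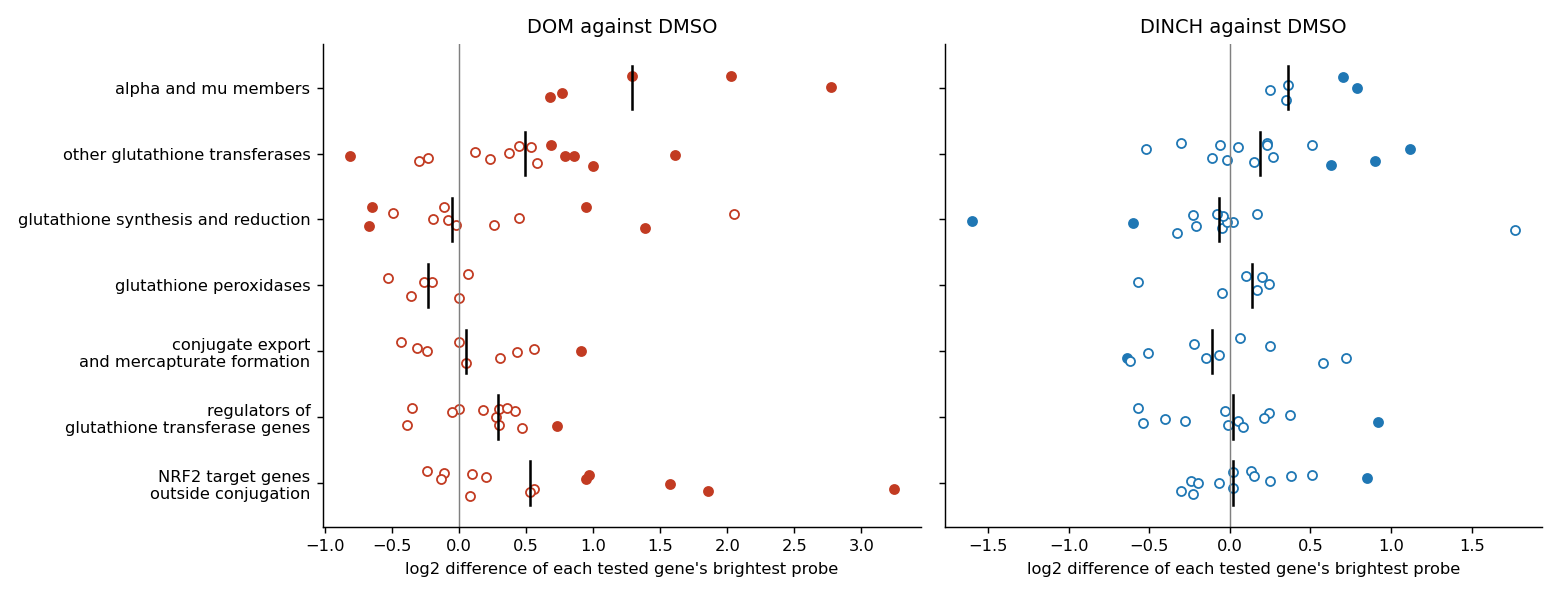
Log2 difference from DMSO (horizontal axis) of the brightest probe of each tested gene, by gene list (vertical axis), for DOM (left) and DINCH (right). Each point is a gene, filled where that probe was called, and the vertical bar is the median of the list. The members have the highest median in both panels, 1.29 with DOM and 0.36 with DINCH. No glutathione peroxidase was called in either panel, and their medians are -0.23 with DOM and 0.14 with DINCH.

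With DINCH 3 of 14 other transferases were called higher, Gsto2 (2.17-fold, limma adjusted p = 0.00318), the theta enzyme Gstt1 (1.87-fold, 0.0138) and Gstz1, the maleylacetoacetate isomerase (1.55-fold, 0.0113). Of all genes tested, 4.25% were called higher with DINCH. Here genes of glutathione synthesis were called only in the downward direction, 2 of 12, where 4% of genes were called lower. The cystine antiporter gene Slc7a11 fell by 1.60 on the log2 scale (limma adjusted p = 0.0148) and the glutathione synthetase gene Gss by 0.60 (0.00686). The exporter gene Abcc4 fell by 0.64 (limma adjusted p = 0.00973), the only gene called among 10 of its list. Of the regulators 2 of 12 were called higher, with Rxra at 1.90-fold (limma adjusted p = 0.00541) and a dimmer probe of Arnt at 1.63-fold (0.0406). Nfe2l2 passed the p threshold but not the 1.5-fold limit (log2 difference -0.54, limma adjusted p = 0.0203). Of the NRF2 targets 1 of 13 was called higher, Nqo1 at 1.80-fold (limma adjusted p = 0.0145). With MEHP, where 1.13% of genes were called higher, the only gene called in the 6 lists was Gsto2, at 1.86-fold (limma adjusted p = 0.00585). With BDB and DOS none was called.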

How the data were processed

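Gene expression was measured in 23 TM4 cultures, each on a 1-colour Agilent array. The authors extracted spot intensities with Feature Extraction 11.5.1.1, which subtracted background and marked outlier spots, and deposited linear intensities that were not scaled between arrays. They also deposited log2 values shifted to the 75th percentile and centred on each probe's median, with column medians of -0.36 to 0.18. These were used only as an alternative, and an array's scanner values correlated with its own column at 0.9996 or more. The array was designed on build mm9.

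Here the log2 of the processed intensity (floor of 1) was set relative to the 75th percentile of the array over 59305 non-control spots, 102 to 187 outlier spots per array were dropped and repeated spots of 1 probe averaged. Probes were named through their RefSeq transcript (26582 of 55681 probes). Probes entered a test if either group had them well above background, and not below the 20th percentile, on all of its arrays. Tests were made with limma 3.58.1 in R 4.3.3 on the arrays of the compared groups, with Benjamini-Hochberg adjustment over all tested probes, or over the 240020 tests of all 10 compound pairs. A single probe with an adjusted p below 0.05 and more than 1.5-fold sufficed to call a gene, whose printed value is that of its brightest probe. The steps were tested on simulated data. Figures were drawn with matplotlib 3.10.9 in Python 3.11.15.

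The members and gene lists were chosen with earlier results of these data known. Named were all members, up to 3 called genes per list, compound and direction whose treated arrays did not overlap the DMSO arrays, and the 5 genes most alike. Any other gene was chosen after its values were seen, as with Nfe2l2, Arnt, Mgst3, Gstk1, Gstcd, Gpx1 and Gpx4. The p-values measure the spread between these cultures only, which the authors describe as biological replicates. Replicate numbers are shared between groups. Same-numbered arrays deviated together from their group means in every pair for DINCH (correlations of 0.17 to 0.49), BDB (0.24 to 0.43) and DOS (0.19 to 0.45) against DMSO, but not for MEHP (-0.14 to 0.45) or DOM (0.04 to 0.43). Alternative settings comprised normalization by quantiles, normexp background correction with an offset of 50, testing all probes or those detected on 1 array, blocks for slide or replicate number, a joint fit of all groups, keeping outlier spots, the values of the authors and leaving out each array in turn. Protein sequences, the Gsta4 promoter, qPCR and viability were not analysed here. The authors' extraction measures were in range on 15 arrays, and all 23 were used. Some cell type markers are not reported here.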

Additional observations from a re-analysis of the deposited data

Results flagged for a closer look

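The direct comparisons showed differences between compounds at the same dose, time and vehicle. DOM and DOS lay in the same slide rows, as did MEHP, DINCH and BDB, but between these sets the row and the compound cannot be told apart. The number of members called higher with DOM, with the share of all tested genes called higher, was 3 against DOS (6.87%), 4 against MEHP (9.05%), 3 against DINCH (11.1%) and 5 against BDB (14.1%). It was 2 for MEHP against BDB (1.67%) and 2 for DINCH against BDB (5.43%). No array stood apart from its group in any of the 25 sets of 4 arrays examined for the detected members.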

How the results depend on the processing

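The 5 calls of DOM against DMSO were kept under all 17 settings, with log2 differences of 2.02 to 2.98 for Gsta4, 1.90 to 2.18 for Gstm1, 1.14 to 1.38 for Gstm4, 0.71 to 0.84 for Gstm5 and 0.59 to 0.82 for Gstm2. For MEHP 1 member was called with quantile normalization, with the slide as a block and with the replicate block (Gsta4, limma adjusted p = 0.0464, 0.0263 and 0.0266), and 0 to 1 with an array left out. For DINCH 1 was called with normexp, 0 without the filter, 0 with detection on 1 array, and 0 to 2 with an array left out. Without the filter, which adds probes to the test, the DINCH log2 differences stayed at 0.79 for Gsta4 and 0.70 for Gstm1 (limma adjusted p = 0.149 and 0.128). Why these adjusted p-values were higher was not tested. MEHP against BDB and DINCH against BDB each gave 1 with normexp and 1 without the filter, and with an array left out MEHP against BDB gave 1 to 2. DOM against DOS gave 5 with the slide as a block, and DOS against DINCH gave 0 to 1 with an array left out. The lowest correlation between members was 0.31 as deviations from group means. For BDB, where no member was called, the sign turned for Gstm2 (0) and Gstm5 (0) with quantile normalization, for Gsta4 (0) with normexp, and with an array left out, where the values ran from -0.21 to 0.05 (Gsta4), -0.11 to 0.03 (Gstm2), -0.16 to 0.03 (Gstm4) and -0.08 to 0.03 (Gstm5). The replicate block changed no call of a member against DMSO other than Gsta4 with MEHP. Of the 250 counts recomputed, 233 stayed at 0 where the reported count was 0 or within 1.5 times a reported count above 0. Many of the 233 are counts of 0 that stayed 0, so the number says little about the positive calls. The causes of the other changes were not tested. Brightness limits Gsta1, Gsta2, Gsta3, Gstm6 and Gstm7, which were at or near background. With detection on 1 array Gsta1 was also called higher for DOM. It entered that test only through the 2 DOM arrays where it was well above background, so the call adds no support and no value is given.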
